A study of Homo sapiens with 8 samples.

Results

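The genes described here encode the constitutive subunits of the proteasome. They are the protein-coding genes whose symbol is PSMA, PSMB, PSMC or PSMD followed by a number, without PSMB8, PSMB9 and PSMB10, which encode the inducible subunits of the immunoproteasome. The rule gave 36 genes of the 58302 in the files. It used names alone and no measured value.

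The 26S proteasome degrades proteins that carry chains of ubiquitin. Its 20S core is a barrel of stacked rings. The outer alpha rings, encoded by PSMA genes, gate the entrance, and the inner beta rings, encoded by PSMB genes, hold the catalytic subunits. The 19S cap has a base of PSMC ATPases and large scaffold subunits, which unfold a substrate and push it into the core, and a lid of PSMD subunits, which removes the ubiquitin chain. Some PSMD genes encode chaperones that help to build the base and are not part of the finished particle. In mammalian cells the factor NFE2L1, paired with a small MAF protein, raises the subunit genes together when proteasome activity falls, by binding antioxidant response elements in their promoters.

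RNA sequencing was done in SK-Hep1, an established human cell line from a liver tumour. Mock control cells (control cells) and cells with ectopic SLC29A2, an equilibrative nucleoside transporter gene (SLC29A2 cells), each received a control treatment, the kinase inhibitor sorafenib, the nucleoside transport and phosphodiesterase inhibitor dipyridamole, or both drugs. The control treatment of the SLC29A2 cells is taken from a treatment label that reads control. Doses, times, the promoter of the transgene and whether the SLC29A2 cells were a clone were not given in those labels. Each of the 8 conditions had a single library, so there were no replicates.

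Library totals were 14.07 to 16.69 M reads. SLC29A2 stood at 7.11 to 7.81 FPKM (fragments per kilobase of transcript, scaled to library depth) in control cells and at 1480 to 3040 FPKM in SLC29A2 cells. Of the markers of other cell types, 1 of 6 hepatocyte genes (SERPINA1), 1 of 6 endothelial genes (TIE1) and 1 of 5 leukocyte genes (CD14) had a mean of at least 1 FPKM, and APOB, TTR, CD3E and LYZ were at 0 in all 8 libraries. All 5 mesenchymal genes and 3 of 5 epithelial genes, the keratins KRT8, KRT18 and KRT19, passed that level. Both control-cell libraries given dipyridamole stood apart in composition, with 2.48% and 2.68% of reads in non-coding genes against 1.6% to 1.93% in the other libraries. They were unlike each other in mitochondrial reads, at 5.74% with dipyridamole alone and 1.88% with both drugs, against 2.25% to 4.54% in the other libraries.

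Messages of nearly the whole particle were present, and 34 of the 36 genes passed the filter of a mean of at least 1 FPKM. The remaining pair, PSMA8 and PSMB11, encode ring subunits known from the testis and the thymus. PSMA8 had 0 reads in every library, which allows a level of up to 0.109 to 0.129 FPKM if 3 reads are taken as the limit (counting error only), and PSMB11 had 0 or 1 read per library. All 36 genes together summed to 4496 FPKM in control cells with the control treatment, 0.633% of all FPKM. The sum was 4077 FPKM with sorafenib, 3529 with dipyridamole and 3528 with both drugs. In SLC29A2 cells the sums in the same order were 4155, 3915, 4072 and 4114 FPKM. The low sums thus belonged to the same control-cell libraries that stood apart in composition. Whether that composition had a part in the low sums was not tested.

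In the sentences that follow, values per library are given in a fixed order, which is control treatment, sorafenib, dipyridamole and both drugs, first for control cells and then for SLC29A2 cells. Means carry the SD over these 8 libraries, which differ in condition, so the SD holds any effect of the drugs.

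The catalytic subunits of the core were PSMB6 (caspase-like activity), PSMB7 (trypsin-like activity) and PSMB5 (chymotrypsin-like activity). PSMB6 stood at 217, 225, 181 and 195 FPKM in control cells and at 188, 194, 227 and 218 FPKM in SLC29A2 cells, with a mean of 206 ± 18 FPKM (SD, n = 8). PSMB7 stood at 195, 195, 194 and 178 FPKM and at 171, 182, 213 and 222 FPKM, with a mean of 194 ± 17.3 FPKM (SD, n = 8). These levels differed by less than their spread. PSMB5 was lower on the FPKM scale, at 161, 144, 121 and 103 FPKM and at 147, 130, 143 and 115 FPKM, with a mean of 133 ± 19.1 FPKM (SD, n = 8). The highest PSMB5 library lay below the lowest libraries of PSMB6 and PSMB7. The structural beta subunits PSMB4 and PSMB3 had means of 196 and 194 FPKM, and PSMB1 and PSMB2 had means of 57.6 and 43.2 FPKM. PSMB2, the lowest tested beta gene, ranged from 36.3 FPKM in control cells with dipyridamole to 51.2 FPKM in control cells with the control treatment.

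PSMA7, an alpha ring gene on chromosome 20 (chr20:62136735-62143440, GRCh38), was the member with the highest level. It stood at 557, 463, 385 and 442 FPKM in control cells and at 511, 436, 509 and 522 FPKM in SLC29A2 cells, with a mean of 478 ± 56.2 FPKM (SD, n = 8). Its lowest library, at 385 FPKM, lay just above the highest library of the next member, PSMD2, at 383 FPKM. The other alpha genes fell into separate levels, PSMA4 at 123, PSMA3 at 114 and PSMA5 at 63.2 FPKM, and PSMA1, PSMA6 and PSMA2 at 12.8, 2.98 and 1.44 FPKM.

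Among the base ATPases, PSMC3 had the highest mean, 168 ± 32.4 FPKM (SD, n = 8). It stood at 211, 171, 120 and 126 FPKM in control cells and at 180, 164, 165 and 203 FPKM in SLC29A2 cells. PSMC1 had the lowest mean of the ATPases, 38.7 ± 4.67 FPKM (SD, n = 8). It stood at 43.0, 41.3, 33.5 and 32.4 FPKM and at 38.8, 40.2, 35.0 and 45.4 FPKM. For both ATPases the control-cell libraries with dipyridamole were the lowest of the 8. PSMC4 lay near PSMC3 at 144 FPKM, and PSMC5, PSMC2 and PSMC6 lay together at 78.8, 76.2 and 76.1 FPKM.

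PSMD2, a scaffold subunit of the base, led the PSMD genes with 383, 321, 279 and 259 FPKM in control cells and 353, 312, 258 and 347 FPKM in SLC29A2 cells, a mean of 314 ± 46.1 FPKM (SD, n = 8). The lid subunit PSMD3 had a mean of 309 ± 38.8 FPKM, which differed from PSMD2 by less than their spread. The other scaffold subunit PSMD1 had 75.1 FPKM and the ubiquitin receptor PSMD4 had 172 FPKM. The remaining lid genes ran from 42.3 FPKM for PSMD12 to 185 FPKM for PSMD8, with the deubiquitinase PSMD14 at 56.2 FPKM. The assembly chaperones PSMD10 and PSMD5 had 46.7 and 33.8 FPKM, and the chaperone PSMD9 was the lowest of its family at 2.26, 2.94, 2.77 and 4.15 FPKM in control cells and 2.73, 3.29, 2.13 and 3.27 FPKM in SLC29A2 cells.

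**Figure D1:**
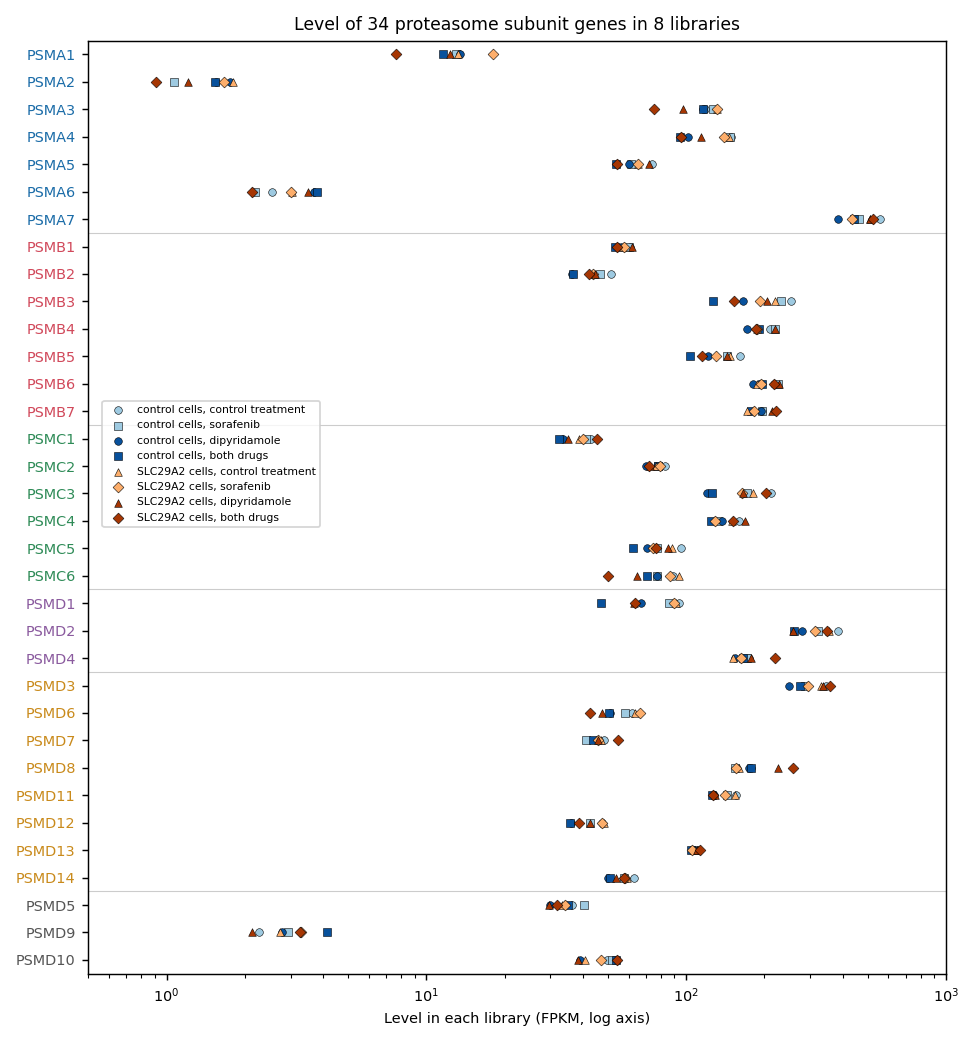
Level of the 34 tested proteasome subunit genes in each of the 8 libraries, in FPKM on a log axis, with genes ordered by role (alpha ring, beta ring, base ATPases, base scaffold and receptor subunits, lid, assembly chaperones) and 1 symbol per library. Most genes lie between 33.8 and 478 FPKM with their 8 libraries close together, and PSMA1, PSMA2, PSMA6 and PSMD9 lie apart at 1.44 to 12.8 FPKM on average.

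The order of these levels depended in part on the gene length behind FPKM. The deposited values divide reads by the mean length of a gene's annotated transcripts, short ones included, and for 18 of the 34 tested members that mean was below the length of the gene's own coding bases. PSMD2 was divided by 1007 bases and has 2819 coding bases, and PSMB2 was divided by 2682 bases and has 603. With reads divided by coding length, an alternative chosen after the values were seen, PSMD2 moved from 314 to 112 and PSMB2 from 43.2 to 192 per kilobase of coding sequence per M reads. All reads of a gene were divided, not only those in coding bases. Genes with long untranslated parts, such as PSMB2, can therefore stand too high on this measure, and neither order of levels is exact. PSMC3 moved from 168 to 112, and PSMC4, at 147, then led the ATPases. Of the catalytic subunits, PSMB6 stood at 199, PSMB7 at 136 and PSMB5 at 129, so that PSMB7 then lay nearer to PSMB5 than to PSMB6. PSMA7 remained the highest member at 447. Differences of 1 gene between libraries do not depend on this length.

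The 4 lowest tested members were also the 4 whose coding sequence is annotated a second time. Of the coding bases of PSMA2 (chr7:42916857-42932223), 97.1% also lie in exons of another protein-coding gene on the same strand, AC010132.3. The share was 88.6% for PSMA1 (chr11:14504874-14643635, with AC018523.2), 70.4% for PSMA6 (chr14:35278633-35317493, with AL121594.1) and 58.7% for PSMD9 (chr12:121888731-121918297, with AC069503.2). For the other 30 tested members it was 0. Those 30 had means of 33.8 to 478 FPKM, and the 4 with a second annotation had means of 12.8 FPKM or less. In the assembled alpha ring, PSMA1, PSMA2 and PSMA6 are present in as many copies as PSMA7, PSMA4, PSMA3 and PSMA5. Equal copies of the protein need not mean equal message levels. PSMA7 and PSMA5, both with no second annotation, had means of 478 and 63.2 FPKM. The overlapping genes themselves had at most 0.147 FPKM in any library. Divided by coding length, the 4 genes had 2.98 to 13.3 and the 30 others 20.9 to 447 per kilobase per M reads. How reads that fall in exons of more than 1 gene were counted is not stated in the sources used here, and the part of such reads in the low values was not tested. The levels of these 4 genes are therefore uncertain. They also rested on few reads, 26 to 48 per library for PSMA2, 33 to 55 for PSMA6, 55 to 99 for PSMD9 and 106 to 219 for PSMA1. On the opposite strand, coding bases were shared by PSMC1 (47.7%, with NRDE2), PSMD7 (28.4%), PSMC5 (10.5%) and PSMD11 (6.5%). Strand use in counting is not stated, so it is not known whether reads of these genes were told apart from those of their partners there.

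**Figure D2:**
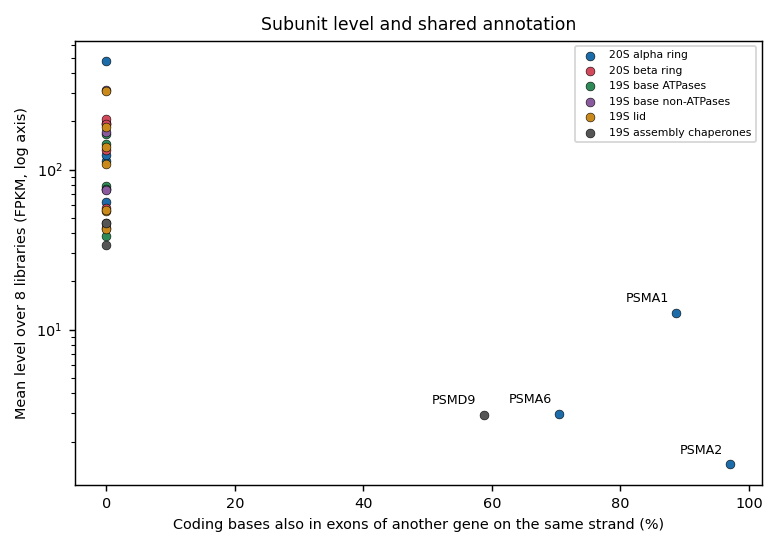
Mean level over 8 libraries (FPKM, log axis) of the 34 tested members against the percentage of their coding bases that also lie in exons of another gene on the same strand, with 1 point per gene coloured by role. The 30 genes at 0% lie between 33.8 and 478 FPKM, and PSMA1, PSMA2, PSMA6 and PSMD9, at 58.7% to 97.1%, lie at or below 12.8 FPKM.

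The subunit genes varied little over the 8 conditions. Their median coefficient of variation was 12.5%, from 2.75% for the lid gene PSMD13 to 23.2% for PSMA2. The highest library exceeded the lowest by less than 1.5-fold for 20 of the 34 (58.8%), against 17.5% of all 13899 genes tested. Among genes with means of 30 to 500 FPKM the count was 20 of 30 members (66.7%) against 28.9% of 4370 genes. Cytosolic ribosomal protein genes gave 53 of 79 (67.1%), genes of the CCT chaperonin, which folds actin and tubulin, gave 2 of 8, and the immunoproteasome genes gave 0 of 3 with a median coefficient of variation of 40.9%. PSMD13 stood at 111, 107, 107 and 104 FPKM in control cells and at 107, 105, 110 and 113 FPKM in SLC29A2 cells. The widest member was PSMA1, a gene of few reads, at 18 FPKM in SLC29A2 cells with sorafenib and 7.64 FPKM with both drugs.

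**Figure D3:**
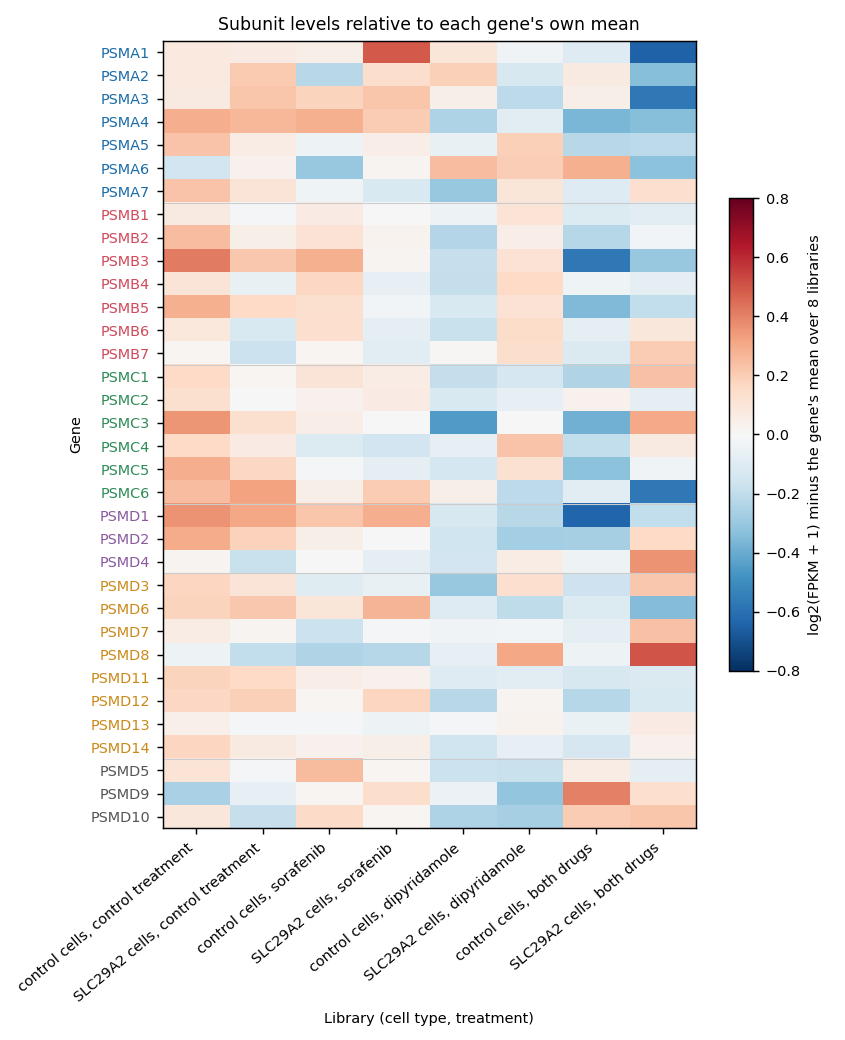
Difference of log2(FPKM + 1) of each tested member from that gene's mean over the 8 libraries, with genes in rows by role and libraries in columns, red above and blue below the mean. The columns of control cells with dipyridamole and with both drugs are mostly blue, and the column of control cells with the control treatment is mostly red.

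The lowest library of a member was most often a control-cell library given dipyridamole. It was control cells with both drugs for 12 of 34 members (35.3%, against 7.02% of all genes tested) and control cells with dipyridamole alone for 8 (23.5%, against 9.41%). SLC29A2 cells with dipyridamole alone were lowest for 4 members (11.8%, against 17.8%) and SLC29A2 cells with both drugs for 6 (17.6%, against 18.5%). The highest library was control cells with the control treatment for 13 members (38.2%, against 10.1% of all genes). It was SLC29A2 cells with both drugs for 8 (23.5%, against 15.7%). Control cells with both drugs held the highest value of 34.1% of all genes tested and of 2 members, PSMA6 and PSMD9, both among the genes with a second annotation.

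Dipyridamole was compared over 4 pairs of libraries that differed in that drug alone, with cell type and sorafenib in the model. The limma test on log2(FPKM + 1), adjusted over all genes by Benjamini-Hochberg at a threshold of 0.05, found 12.6% of all genes lower and 17.5% higher. Of the 34 members, 5 fell (14.7%) and 0 rose, and 10 had an unadjusted p below 0.05 (29.4%, against 42% of all genes). The share that fell was near that of all genes. The median log2 difference was -0.157 over the members and 0.074 over all genes, and 26 of 34 members lay below 0 (76.5%, against 43.3% of genes). With libraries scaled by size factors, 7 members fell and 0 rose, with 16.5% of all genes lower and 13.4% higher. The p-values measure only the spread between these 8 libraries, which includes any interaction of the factors.

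The 5 genes that fell came from the alpha ring (PSMA4), the beta ring (PSMB3), the ATPases (PSMC6), the base scaffold (PSMD1) and the lid (PSMD6), 1 from each. PSMD1 (chr2:231056864-231172827), a platform of the base for ubiquitin receptors, stood at 94.1, 85.5, 66.9 and 46.9 FPKM in control cells and at 91.2, 89.8, 62.8 and 63.7 FPKM in SLC29A2 cells. Every library with dipyridamole lay below every library without it. The mean went from 90.1 ± 3.61 to 60.1 ± 8.97 FPKM (SD, n = 4 each), a log2 difference of -0.59 ± 0.11 (SE; limma, adjusted p = 0.00557). PSMA4 (chr15:78540405-78552419) stood at 149, 148, 102 and 94.2 FPKM and at 146, 140, 114 and 95.7 FPKM, again with no overlap between libraries with and without the drug. Its mean went from 146 ± 3.99 to 101 ± 8.87 FPKM (SD, n = 4 each), a log2 difference of -0.52 ± 0.10 (SE; limma, adjusted p = 0.00464). Both calls held with each of the 8 libraries left out in turn.

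PSMD6 (chr3:64010549-64024010), a lid subunit, stood at 61.8, 58.3, 50.7 and 50.5 FPKM in control cells and at 63.6, 66.1, 47.3 and 42.7 FPKM in SLC29A2 cells. The groups did not overlap, and the log2 difference was -0.38 ± 0.10 (SE; limma, adjusted p = 0.0225, n = 4 pairs). The call was lost without any 1 of the 4 SLC29A2-cell libraries, with adjusted p of 0.0716 without the control treatment, 0.0908 without sorafenib, 0.0576 without dipyridamole and 0.0556 without both drugs. PSMB3 (chr17:38752736-38764231), a structural beta subunit, stood at 253, 231, 166 and 127 FPKM and at 220, 192, 205 and 153 FPKM. It was lower with dipyridamole in all 4 pairs, but the groups overlapped, since SLC29A2 cells had 205 FPKM with dipyridamole and 192 FPKM with sorafenib. The log2 difference was -0.47 ± 0.13 (SE; limma, adjusted p = 0.0253, n = 4 pairs). The call was lost without any 1 of the 4 control-cell libraries, with adjusted p of 0.0615, 0.0993, 0.0669 and 0.0905 in the fixed order. With the control-cell libraries given dipyridamole left out, the difference rested on SLC29A2 cells alone and was -0.22 (limma, adjusted p = 0.228).

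PSMC6 (chr14:52707172-52728587), an ATPase, stood at 88.9, 77.4, 77.4 and 70.4 FPKM in control cells and at 93.8, 86.3, 64.4 and 49.9 FPKM in SLC29A2 cells. The lowest values were in SLC29A2 cells, and the groups met at 77.4 FPKM. The log2 difference was -0.41 ± 0.12 (SE; limma, adjusted p = 0.0344, n = 4 pairs). The call was lost without control cells with sorafenib (adjusted p = 0.0501) and without any 1 of the SLC29A2-cell libraries, with adjusted p of 0.106, 0.117, 0.0913 and 0.0841 in the fixed order.

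**Figure D4:**
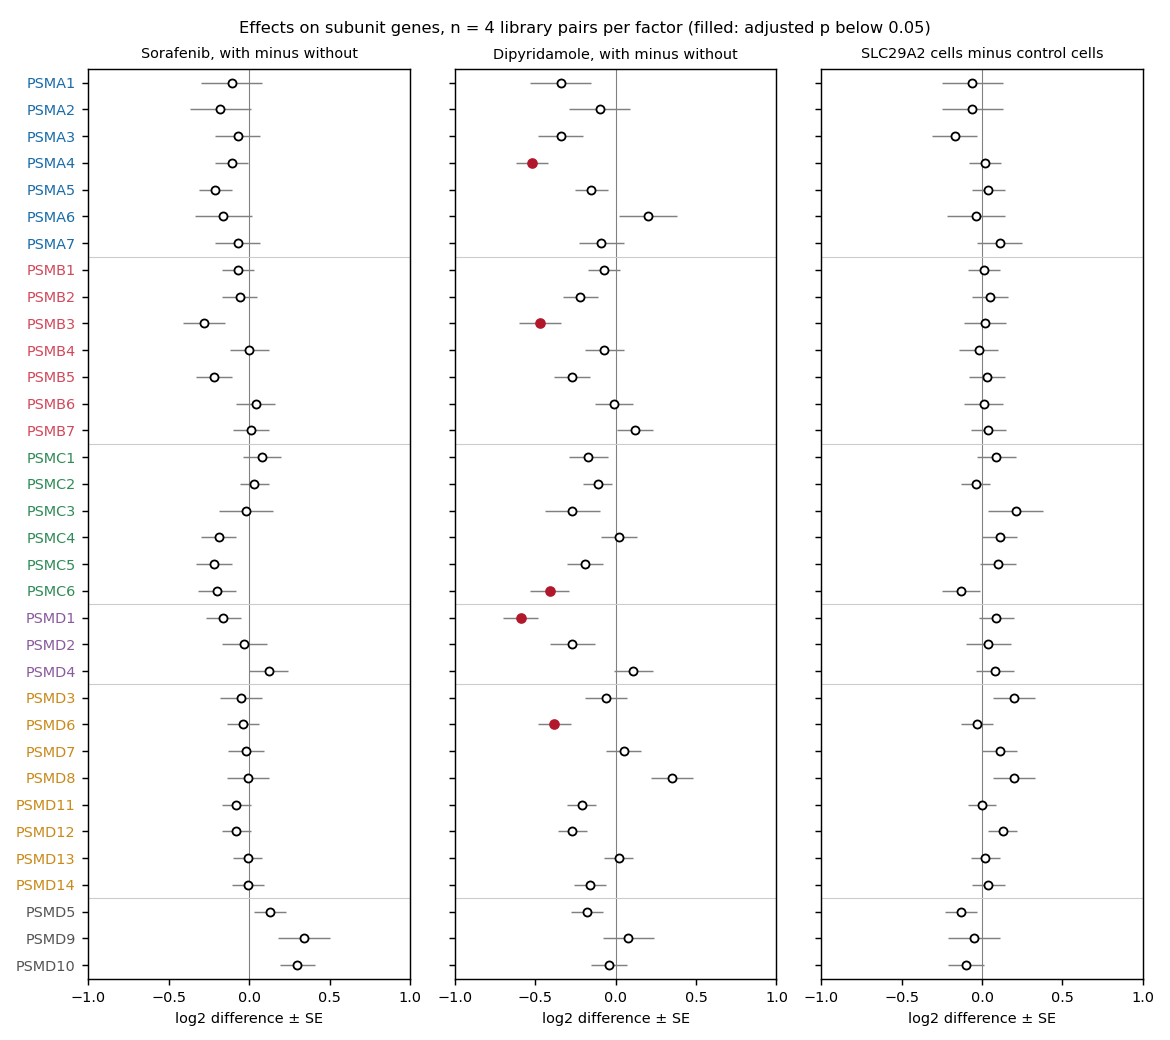
Difference of log2(FPKM + 1) with sorafenib, with dipyridamole and in SLC29A2 cells for the 34 tested members, as estimate ± SE over 4 library pairs per factor, with filled points where the adjusted p is below 0.05. Filled points appear for dipyridamole alone, at PSMA4, PSMB3, PSMC6, PSMD1 and PSMD6, all below 0.

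The other members followed in both directions without passing the test. PSMB5 was lower in all 4 pairs, at -0.27 ± 0.11 (limma, adjusted p = 0.0835), while PSMB6 was at -0.01 ± 0.12 and PSMB7 at 0.12 ± 0.11. The lid gene PSMD12 was at -0.27 ± 0.09 (limma, adjusted p = 0.0535). The largest positive value was that of the lid gene PSMD8, 0.35 ± 0.13 (limma, adjusted p = 0.0783), which stood at 177, 154, 174 and 177 FPKM in control cells and at 159, 155, 226 and 258 FPKM in SLC29A2 cells. The 2 highest PSMD8 libraries were both SLC29A2 cells given dipyridamole. Single library pairs gave few large differences, counted on log2(FPKM + 1), which understates changes of low genes. PSMA2 was thus not counted in SLC29A2 cells, at 1.67 FPKM with sorafenib and 0.908 FPKM with both drugs. In control cells, 2 members were at least 1.5-fold lower with dipyridamole (9.42% of all genes) and 0 higher (16.4%), and beside sorafenib 3 were lower (7.84%) and 1 higher (23.0%). In SLC29A2 cells, 0 members were at least 1.5-fold lower (14.6%) and 0 higher (12.2%), and beside sorafenib 4 were lower (15.0%) and 1 higher (16.4%). In SLC29A2 cells without sorafenib all 34 members thus lay within 1.5-fold. By role, the median difference was -0.15 for the alpha ring, -0.07 for the beta ring, -0.18 for the ATPases, -0.27 for the base scaffold and receptor subunits, -0.11 for the lid and -0.04 for the chaperones.

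To show the start regions of the genes that fell, the 250 bases before the RefSeq start are given for PSMA4, PSMB3, PSMC6 and PSMD1, from RefSeq on GRCh38.p14 and 5′ to 3′ on the gene's strand, which is plus for all 4. These windows overlap annotated exons by at most 28 bases, and the window of PSMD6, with a longer overlap, is not printed. Capitals mark motifs known from proteasome promoters, found on either strand, which are the CCAAT box (CCAAT), the core of the antioxidant response element (TGACNNNGC), the GC box (GGGCGG) and an ETS site (CCGGAAG). The windows are chr15:78540155-78540404 for PSMA4, chr17:38752491-38752740 for PSMB3, chr14:52706950-52707199 for PSMC6 and chr2:231056617-231056866 for PSMD1.
PSMA4: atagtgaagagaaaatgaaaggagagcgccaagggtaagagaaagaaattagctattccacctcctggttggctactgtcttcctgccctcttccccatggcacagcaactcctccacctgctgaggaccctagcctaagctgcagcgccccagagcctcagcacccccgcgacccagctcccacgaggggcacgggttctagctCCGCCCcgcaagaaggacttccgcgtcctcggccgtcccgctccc
PSMB3: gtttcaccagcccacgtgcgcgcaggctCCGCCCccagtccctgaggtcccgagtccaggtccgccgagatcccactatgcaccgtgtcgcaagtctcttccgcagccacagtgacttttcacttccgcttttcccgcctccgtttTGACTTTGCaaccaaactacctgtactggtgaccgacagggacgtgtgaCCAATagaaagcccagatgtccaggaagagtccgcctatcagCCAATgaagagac
PSMC6: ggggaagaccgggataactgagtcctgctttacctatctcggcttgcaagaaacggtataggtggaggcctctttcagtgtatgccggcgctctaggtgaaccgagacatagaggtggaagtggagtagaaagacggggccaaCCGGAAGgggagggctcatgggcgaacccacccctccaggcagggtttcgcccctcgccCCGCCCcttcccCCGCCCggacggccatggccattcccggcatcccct
PSMD1: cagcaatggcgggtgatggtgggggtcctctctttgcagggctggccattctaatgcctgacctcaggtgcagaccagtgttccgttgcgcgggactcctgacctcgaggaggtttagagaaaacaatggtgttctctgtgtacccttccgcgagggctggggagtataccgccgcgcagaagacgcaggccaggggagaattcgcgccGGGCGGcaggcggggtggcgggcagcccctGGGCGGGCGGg
PSMB3 is the 1 gene of these 4 with an antioxidant response element core in its window, beside CCAAT boxes and a GC box. PSMA4 and PSMD1 hold GC boxes alone, which overlap in part in PSMD1, and PSMC6 holds GC boxes and an ETS site.

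Windows of the same length were searched for the 31 members with an entry among 27303 promoters. PSMA7, PSMB1, PSMB6, PSMB7 and PSMD4 had no entry. The 27303 promoters were not limited to expressed genes, so the shares below do not compare the members with other expressed genes. The 31 include PSMA8 and PSMB11, which did not pass the filter on level. The antioxidant response element core was in 5 of 31 (16.1%, against 11% of all promoters), which were PSMB3, PSMD3, PSMD5, PSMD9 and PSMD12. The CCAAT box was in 15 (48.4%, against 33%), the GC box in 19 (61.3%, against 42.3%) and the ETS site in 8 (25.8%, against 8.82%). A match is a run of letters and not a measured binding site.

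Sorafenib moved no member past the test. Of all genes, 5.94% rose and 2.17% fell with sorafenib, and of the 34 members 0 did either by limma on log2(FPKM + 1). By limma 1 member had an unadjusted p below 0.05 (2.94%, against 26.6% of all genes). By voom on reads recovered from the FPKM values, 0 members were called. The median log2 difference was -0.055 over the members and 0.089 over all genes. With size factors these medians were -0.174 and -0.019, since the scaling moved all genes down, with 3.18% of all genes then higher and 3.5% lower, and 0 members were again called. The members' median lay below that of all genes under both scalings.

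The largest differences with 1 sign in all 4 pairs were those of chaperones and of PSMB3. PSMD10, also known as gankyrin, stood at 49.4, 51.7, 38.9 and 53.5 FPKM in control cells and at 40.7, 46.9, 38.3 and 54.2 FPKM in SLC29A2 cells. Its difference was 0.30 ± 0.11 (limma, adjusted p = 0.126, n = 4 pairs), and the groups overlapped. PSMD9 was at 0.34 ± 0.16 (limma, adjusted p = 0.204) on few reads, and PSMB3 at -0.28 ± 0.13 (limma, adjusted p = 0.207). The 3 chaperone genes PSMD5, PSMD9 and PSMD10 lay between 0.13 and 0.34, each higher in all 4 pairs. All 7 alpha ring genes and all 8 lid genes lay below 0, within 0.21 of it on the log2 scale.

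Of the 3 immunoproteasome genes, PSMB8 and PSMB9 rose with sorafenib, and PSMB10, at 0.41 ± 0.17, did not pass the test (limma, adjusted p = 0.157). PSMB9, the inducible counterpart of PSMB6, stood at 7.96, 23.5, 5.57 and 27.1 FPKM in control cells and at 5.58, 16.6, 7.75 and 32.3 FPKM in SLC29A2 cells. It rose with sorafenib by 1.72 ± 0.19 on the log2 scale (limma, adjusted p = 0.00296, n = 4 pairs), with no overlap between the groups. PSMB8, the counterpart of PSMB5, rose by 0.64 ± 0.11 (limma, adjusted p = 0.0157), from 22.4 ± 2.88 to 35.4 ± 2.26 FPKM (SD, n = 4 each). That call was lost without control cells with sorafenib (adjusted p = 0.055) or with dipyridamole (adjusted p = 0.0653) and with size factors (adjusted p = 0.0588). PSMB5 and PSMB6 themselves were at -0.22 ± 0.11 and 0.04 ± 0.12 with sorafenib. The difference between an inducible and a constitutive gene was not tested.

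Cell type moved no member either. In the test of SLC29A2 cells against control cells 0.00719% of all genes passed, and of the 34 members 0 did, also by voom. By limma 0 members had an unadjusted p below 0.05, against 3.93% of all genes. The members lay between -0.17 and 0.21 on the log2 scale, with a median of 0.026 against -0.060 over all genes. The lid gene PSMD12 was higher in SLC29A2 cells in all 4 pairs, by 0.13 ± 0.09, and PSMD5 was lower in all 4, at -0.13 ± 0.10 (limma, adjusted p = 0.965 for both).

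Each interaction was added to the model singly, and no member passed the test for any of them. For sorafenib by dipyridamole, 0.0863% of all genes passed, with 0 members at an unadjusted p below 0.05, against 13.2% of all genes. The smallest p among members were those of PSMA1, at -0.60 ± 0.32, and PSMD10, at 0.34 ± 0.18 (limma, adjusted p = 0.468 for both). For cell type by sorafenib 0.0% of all genes passed, with 0 members at an unadjusted p below 0.05, against 0.719% of all genes. PSMD1 was at 0.32 ± 0.24 and PSMD7, a lid partner of PSMD14, at 0.25 ± 0.23 (limma, adjusted p = 1.0 for both).

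The response to dipyridamole differed most between the cell types, though again 0 members and 0.0% of all genes passed the adjusted limma test for cell type by dipyridamole. Of the members, 10 had an unadjusted p below 0.05 (29.4%, against 19.8% of all genes). The interaction was positive for 27 of 34 members (79.4%, against 37.3% of all genes), which means a less negative or more positive response in SLC29A2 cells, with a median of 0.172 against -0.139 over all genes. With size factors the medians were 0.377 and 0.044, and 16 members had an unadjusted p below 0.05 (47.1%, against 21.3% of all genes). The interaction then lay below 0 for 20.6% of members and 46.0% of all genes, against 20.6% and 62.7% before. In control cells 27 members were lower with dipyridamole in both pairs (79.4%, against 26.3% of all genes) and 3 higher in both (8.82%, against 47.7%). In SLC29A2 cells the counts were 15 (44.1%, against 36.8%) and 7 (20.6%, against 35.6%). The pairs of 1 cell type rest on 4 libraries, which the interaction also uses.

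PSMC3 and PSMC6, ATPases of 1 ring, had interactions of opposite sign. For PSMC3 the dipyridamole pairs differed by -0.81 and -0.44 on the log2 scale in control cells, without and with sorafenib, and by -0.13 and 0.31 in SLC29A2 cells. The interaction was 0.72 ± 0.22 (limma, adjusted p = 0.163). For PSMC6 the pairs differed by -0.20 and -0.14 in control cells and by -0.54 and -0.78 in SLC29A2 cells, an interaction of -0.49 ± 0.16 (limma, adjusted p = 0.171). All 7 tested beta ring genes had a positive interaction, 0.16 to 0.51. The alpha ring genes divided, with PSMA1, PSMA2, PSMA3 and PSMA6 at -0.53 to -0.62 and PSMA4, PSMA5 and PSMA7 at 0.14 to 0.42. PSMA1, PSMA2 and PSMA6 are genes with a second annotation and few reads, whose levels are uncertain, as is PSMD9, at -0.43. Of the alpha ring genes with no second annotation, PSMA3 alone was negative.

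The interaction moved with the base composition of the transcripts. Across the 34 members its Pearson correlation with transcript GC content was 0.61, and 0.72 across the 30 members with no second annotation. Across 13874 genes it was 0.33. Genes of 1 set of 8 libraries share those libraries and are not independent, so no p is given. The 13 members with a GC content of at least 50%, a cut chosen after the values were seen, had a median interaction of 0.42, and the 21 below it had 0.11. Across all genes the medians also differed at that cut, -0.0 at or above it and -0.26 below it. The correlation of the dipyridamole effect itself with GC content was 0.43 across members and 0.15 across all genes, and that of the sorafenib effect 0.12 and -0.01. For cell type it was 0.56 across members and 0.18 across all genes, for sorafenib by dipyridamole 0.46 and -0.02, and for cell type by sorafenib 0.19 and -0.05. The part of base composition, library preparation or the distinct composition of the dipyridamole-treated control-cell libraries in the interaction was not tested.

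**Figure D5:**
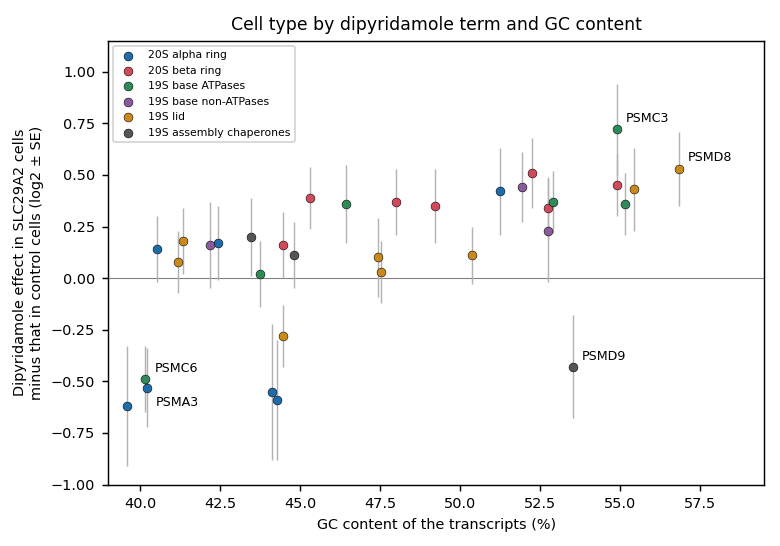
Cell type by dipyridamole interaction of the 34 tested members (dipyridamole effect in SLC29A2 cells minus that in control cells, log2 ± SE) against the GC content of their transcripts in percent, coloured by role. PSMC3 and PSMD8, of high GC content, lie at 0.72 and 0.53, PSMC6 and PSMA3, of low GC content, at -0.49 and -0.53, and PSMD9 lies apart from the other genes of high GC content at -0.43.

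Genes that act with the subunits were read from lists by function. In the list of transcriptional control, 3 of 7 genes rose with dipyridamole and 0 fell, against 17.5% and 12.6% of all genes. NFE2L1, the activator of subunit genes named above, stood at 426, 603, 632 and 829 FPKM in control cells and at 482, 652, 780 and 1260 FPKM in SLC29A2 cells. It was higher with each drug in all 4 pairs. With dipyridamole it rose by 0.67 ± 0.13 on the log2 scale (limma, adjusted p = 0.00492), a call that held without each library in turn. With sorafenib the difference was 0.50 ± 0.13 (limma, adjusted p = 0.0441), and that call was lost with any of the 8 libraries left out (adjusted p of 0.0606 to 0.136) and with size factors (0.186). Its partner MAFG rose with dipyridamole by 0.90 ± 0.13 (limma, adjusted p = 0.00138), from 59.3 ± 7.26 to 111 ± 12 FPKM (SD, n = 4 each). MAFF, another small MAF protein, rose with dipyridamole by 0.63 ± 0.13 (limma, adjusted p = 0.00701). With sorafenib MAFF fell by 0.74 on the log2 scale (limma, adjusted p = 0.015), a call lost without control cells with both drugs (adjusted p = 0.0604).

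Of 5 genes of proteasome activators and the inhibitor PSMF1, 1 fell with dipyridamole. This was PSME3, the nuclear activator PA28 gamma, at 197, 167, 128 and 113 FPKM in control cells and 179, 163, 136 and 133 FPKM in SLC29A2 cells, with a log2 difference of -0.47 ± 0.10 (limma, adjusted p = 0.00944). The groups did not overlap. With the control-cell libraries given dipyridamole left out, the difference rested on SLC29A2 cells alone (limma, adjusted p = 0.0716). Of 12 genes for proteins that dock on the 26S particle, 1 rose and 1 fell with dipyridamole. ZFAND2A, a stress-induced proteasome adaptor, rose by 0.61 ± 0.12 (limma, adjusted p = 0.00518), and with those libraries left out its adjusted p was 0.0571. The deubiquitinase USP14 fell by 0.32 on that scale (limma, adjusted p = 0.0349), and its call was lost without any 1 of the 8 libraries (adjusted p of 0.0593 to 0.125).

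Among 6 assembly factors outside the PSMD family, PAAF1 rose and PSMG2 fell with dipyridamole. PAAF1, which binds the base ATPases, stood at 6.23, 9.55, 7.55 and 17.6 FPKM in control cells and at 5.61, 6.98, 6.43 and 15.9 FPKM in SLC29A2 cells. The highest values were those with both drugs. Its log2 difference was 0.58 ± 0.17 with dipyridamole (limma, adjusted p = 0.0313) and 0.78 ± 0.17 with sorafenib (limma, adjusted p = 0.0289). The call with dipyridamole was lost without any 1 of the 4 libraries given sorafenib, alone or with dipyridamole (adjusted p of 0.0904 to 0.102). The call with sorafenib was lost without control cells with sorafenib (0.0601) or without any 1 of the 4 libraries given dipyridamole (0.0789 to 0.107). PSMG2, a chaperone of the alpha ring, was at -0.39 ± 0.11 (limma, adjusted p = 0.024). Its call was lost without control cells with the control treatment (0.0795) or dipyridamole (0.0698), and without SLC29A2 cells with the control treatment (0.0796), sorafenib (0.0582) or dipyridamole (0.062).

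Of the 3 immunoproteasome genes, 1 rose with dipyridamole. PSMB10, the counterpart of PSMB7, was at 0.60 ± 0.17 (limma, adjusted p = 0.0265), from 1.76 ± 0.57 to 3.18 ± 0.85 FPKM (SD, n = 4 each). It is a low gene, 58.3% of whose coding bases lie in exons of another gene on the same strand, and the call was lost without 6 of the 8 libraries (adjusted p of 0.0519 to 0.0967), all except control cells with sorafenib and with both drugs. Of the 6 genes of ubiquitin and its activating enzymes, 0 passed the limma test with either drug. In each comparison 1 had an unadjusted p below 0.05 (16.7%, against 26.6% of all genes with sorafenib and 42.0% with dipyridamole).

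The CCT chaperonin, another large ring complex of the cytosol, gave 5 of 8 genes lower with dipyridamole and 0 higher, against 12.6% of all genes lower and 17.5% higher, with a median of -0.452. CCT5 fell by 0.59 on the log2 scale (limma, adjusted p = 0.00514), from 246 ± 10.6 to 163 ± 21.9 FPKM (SD, n = 4 each). CCT3 was at -0.54 and CCT2 at -0.50. The calls of CCT2, CCT3, CCT5, CCT6A and CCT8 held without each library in turn. Of 79 cytosolic ribosomal protein genes 0 passed with dipyridamole by limma, and their median was 0.131. Of these genes, 5 had an unadjusted p below 0.05 (6.33%, against 42.0% of all genes). The difference between these complexes and the proteasome was not tested.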

How the data were processed

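Messenger RNA of 8 SK-Hep1 libraries was measured by RNA sequencing. The deposited values are FPKM, 1 table per library. Build GRCh38.p12 and the tools HTSeq 0.6.1, TopHat2 2.0 and edgeR appear in the submitters' processing notes with no role stated. Strand use and the treatment of reads in overlapping genes are not stated there. Each table had 58302 genes, of which 58039 matched GENCODE release 29, which gave names, positions, coding bases and transcript GC content. From the values, FPKM was reads scaled to library total and mean transcript length. Whole reads were recovered for 91.04% to 91.31% of values at a tolerance of 0.01, and 1 read in a gene of 2 kb was worth 0.03 to 0.0355 FPKM.

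A mean of 1 FPKM or more was required (13899 genes). Log2(FPKM + 1) was modelled by limma (version 3.58.1, under R 4.3.3) with a variance trend, in an additive model of cell type, sorafenib and dipyridamole that left 4 residual degrees of freedom. This scale understates changes of low genes. Tests were two-sided, with Benjamini-Hochberg adjustment over all genes. Scripts were tested on simulated data. Tables were made with Python 3.11.15. The alternatives were a pseudocount of 0.1, no filter, size factors, no variance trend, leaving out libraries, other models and voom on recovered reads.

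The members and lists were chosen with earlier results of these data known. 1 gene of the 26S-associated list is not reported here. Values in every library are given for the catalytic subunits, for the extremes of each family, and for members past the threshold of a main effect, or otherwise for the largest with 1 sign in all 4 pairs. The 2 smallest p are given for an interaction, and up to 3 genes that passed for another list. PSMD13, PSMD8 and PSMB5 under dipyridamole, and some other members, were named after their values were seen.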

Additional observations from a re-analysis of the deposited data

How the results depend on the processing

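No paired analysis was possible because each condition had 1 library and the labels carry no replicate numbers to serve as a block. The library pairs that differ in 1 factor are compared in the additive model itself. With dipyridamole, 5 members were called. The count was 3 with no filter on low values, 3 to 6 with each library left out in turn (3 without control cells with sorafenib and without SLC29A2 cells with the control treatment, sorafenib or dipyridamole), and 15 (14 lower, 1 higher) with all pairwise interactions in the model. Without both dipyridamole-treated control-cell libraries it was 6 (5 lower, 1 higher). The dipyridamole difference then rested on SLC29A2 cells alone and was not the same comparison. The genes called were not the same set either, since PSMB3 was not called (limma, adjusted p = 0.228). PSMB3 and PSMC6 lost their calls with no filter (adjusted p of 0.0803 and 0.0905), and PSMC6 without a variance trend (0.0553). Among genes of the other lists, calls were also lost with no filter for PAAF1 and PSMB10 with dipyridamole (adjusted p of 0.0982 and 0.106) and for PAAF1, PSMB8, MAFF and NFE2L1 with sorafenib (0.116, 0.0662, 0.0725 and 0.161). Leaving out the control-cell libraries given dipyridamole ended the calls of USP14, PAAF1 and PSMG2 with that drug (0.0512, 0.114 and 0.0543) and of PAAF1, MAFF and NFE2L1 with sorafenib (0.125, 0.0591 and 0.0602), and USP14 also lost its call without a variance trend (0.0538). With sorafenib, 0 members were called, and 4 (1 higher, 3 lower) with all pairwise interactions. The model with all pairwise interactions left fewer residual degrees of freedom than the additive model. The share of all genes called was not compared under these alternatives, so these counts do not set the members apart from other genes. The median member difference with sorafenib, -0.055, was -0.174 with size factors and 0.011 without control cells with the control treatment. Cell type gave 0 members under every alternative run. The interactions also gave 0 members, but were refitted only with a pseudocount of 0.1, no filter, size factors and no variance trend. The cause was not tested. The median for cell type, 0.026, was -0.061 with both dipyridamole-treated control-cell libraries left out. The median for dipyridamole and the 5 members called with that drug kept their sign under the alternatives run. The median for sorafenib by dipyridamole, 0.043, was -0.069 with size factors. PSMB6, at 0.04 with sorafenib, lay below 0 with size factors, as did all 7 tested beta ring genes. At these depths PSMA2, PSMA6 and PSMD9 rest on fewer than 100 reads per library.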
